A study of Mus musculus with 12 samples.

Results

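The comparison described here set the 6 libraries labelled Gadd45a-KO or DKO against the 6 labelled WT or Ing1-KO, with the Ing1 label as a covariate, and asked which genes moved alike whether or not Ing1 was intact. All 12 libraries of the study entered it, 3 for each of 4 genotypes. Of 16163 genes tested, 9 were called at an adjusted p under 0.05, which is 0.0557%, and 8 of these 9 also met the condition of being alike on both backgrounds. A gene counted as alike when its log2 fold change had the same sign in Gadd45a-KO minus WT and in DKO minus Ing1-KO. In addition, on each background, all 3 libraries labelled as lacking Gadd45a had to lie beyond all 3 of their controls. The call and this condition used the same 12 libraries, so for called genes the condition is favoured by the call and is not a separate test.

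Poly(A) RNA was sequenced from mouse embryonic fibroblasts of C57BL/6N background on day 6 of differentiation into adipocytes. Per the labels, the libraries labelled Gadd45a-KO lack Gadd45a, those labelled DKO lack Gadd45a and Ing1, WT libraries carry both genes and Ing1-KO libraries lack Ing1. Both losses are germline alleles of the whole animal, and the 4 genotypes were obtained by crossing the 2 mutant lines. All cultures came from male embryos at day E15.5, were grown for 4 passages, and then received a cocktail of 10 µg/ml insulin, 2 µM rosiglitazone, 0.5 mM isobutylmethylxanthine and 1 µM dexamethasone during 48 h, followed by insulin alone. The labels do not say whether the replicates of a genotype are separate embryos or separate cultures, so every p-value here measures the spread between these libraries, which may be technical.

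Gadd45a belongs to a small family of stress-induced nuclear proteins, with Gadd45b and Gadd45g, that bind other proteins rather than catalysing a reaction; it is induced by DNA damage, partly through p53, binds the kinase Map3k4 and has been linked to DNA repair and to active DNA demethylation. Ing1 reads methylated histone H3 and is part of a histone deacetylase complex. In the fibroblast culture used here the hormonal cocktail induces the transcription factors Pparg and Cebpa, which switch on the genes of lipid storage.

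The targeted locus held the 2 called genes with the lowest adjusted p and the largest fold changes, so its start-site sequences are given first. Gadd45a lies on the minus strand of chromosome 6, and the non-coding gene E230016M11Rik lies on the plus strand and overlaps it in the reference annotation: 337 exonic bases belong to both, of 1764 for Gadd45a and 3841 for E230016M11Rik. The library kit does not mark strand, and reads from the shared bases cannot be told apart. Sequences are from RefSeq (GRCm38.p6) and run 5′ to 3′ on the gene's own strand from 250 bases before to 50 bases after the annotated start; 5 of the 9 called genes have an entry. Capitals mark matches on either strand to 4 promoter motifs, the TATA box (TATAAA), the CCAAT box (CCAAT), the AP-1 site (TGACTCA) and the GC box (GGGCGG). The Gadd45a window is chr6:67037358-67037657, the E230016M11Rik window is chr6:67036349-67036648, and that of Barx1, the called gene with the largest negative change outside chromosome 6, is chr13:48662786-48663085 on the plus strand.
Gadd45a: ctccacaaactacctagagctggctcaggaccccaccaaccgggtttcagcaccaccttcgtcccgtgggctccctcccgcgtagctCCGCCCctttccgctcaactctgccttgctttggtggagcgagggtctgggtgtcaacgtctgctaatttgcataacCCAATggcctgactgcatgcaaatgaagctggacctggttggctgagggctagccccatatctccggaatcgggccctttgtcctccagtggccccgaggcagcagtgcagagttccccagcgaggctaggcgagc
E230016M11Rik: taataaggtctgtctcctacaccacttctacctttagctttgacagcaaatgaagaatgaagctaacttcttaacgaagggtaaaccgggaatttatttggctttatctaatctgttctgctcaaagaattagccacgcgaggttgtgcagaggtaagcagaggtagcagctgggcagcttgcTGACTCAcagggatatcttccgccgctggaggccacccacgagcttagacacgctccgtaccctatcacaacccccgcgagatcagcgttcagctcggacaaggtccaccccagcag
Barx1: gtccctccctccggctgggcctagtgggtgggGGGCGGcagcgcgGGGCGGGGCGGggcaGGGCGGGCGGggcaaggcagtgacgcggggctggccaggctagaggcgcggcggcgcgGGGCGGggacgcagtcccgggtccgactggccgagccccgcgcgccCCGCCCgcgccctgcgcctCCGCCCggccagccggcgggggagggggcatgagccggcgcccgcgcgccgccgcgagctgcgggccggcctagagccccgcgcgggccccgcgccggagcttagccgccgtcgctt

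The Gadd45a and E230016M11Rik windows do not overlap, and they share no motif: Gadd45a had 1 CCAAT box and 1 GC box, E230016M11Rik had 1 AP-1 site. The Barx1 window had 8 GC boxes, some of which share letters with each other, and 50 CG dinucleotides, against 14 in Gadd45a, 13 in E230016M11Rik and a median of 7 over all promoters. Of 32851 RefSeq promoters of the same length, 37.4% held a CCAAT box, 35.7% a GC box, 13.6% a TATA box and 5.20% an AP-1 site. A match describes these letters and is not a binding site.

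Gadd45a itself (ENSMUSG00000036390) went against its label on both backgrounds. It stood at 144, 141 and 144 CPM (read counts scaled to library size) in libraries labelled Gadd45a-KO, against 14.5, 17.9 and 15.1 CPM in WT. In the libraries labelled DKO it stood at 140, 142 and 138 CPM, against 13.4, 14.99 and 18.4 CPM in Ing1-KO. The gene was high in all 6 libraries whose label says that it is missing and low in the other 6, and the groups did not overlap on either background. The log2 fold change over both backgrounds was 3.17 ± 0.07 (SE; edgeR quasi-likelihood test, adjusted p = 4.14e-10), 3.18 ± 0.11 for Gadd45a-KO minus WT and 3.16 ± 0.11 for DKO minus Ing1-KO. These differed by -0.02, with a 95% interval from -0.33 to 0.30. With 1 count per gene, the exons behind these reads are not known, nor whether an intact transcript was present. All directions given here therefore rest on the libraries as labelled. Ing1, by contrast, followed its label, with 0.681 to 1.15 CPM in the libraries labelled DKO and 1.00 to 1.60 CPM in Ing1-KO, against 44.4 to 47.3 CPM in libraries labelled Gadd45a-KO and 43.6 to 47.9 CPM in WT.

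E230016M11Rik moved the other way. It had 9, 6 and 4 reads (0.170, 0.122 and 0.0849 CPM) in libraries labelled Gadd45a-KO, against 51, 53 and 48 reads (1.07, 1.15 and 0.956 CPM) in WT. It had 3, 5 and 3 reads (0.0704, 0.110 and 0.0619 CPM) in the libraries labelled DKO, against 52, 62 and 71 reads (1.04, 1.30 and 1.37 CPM) in Ing1-KO. All 6 libraries labelled as lacking Gadd45a lay below all 6 others. The log2 fold change was -3.41 ± 0.20 (adjusted p = 8.46e-06), -3.03 on the Ing1-intact background and -3.89 on the Ing1-KO background, and the difference between these, -0.86, had an interval from -1.91 to 0.18.

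**Figure D1:**
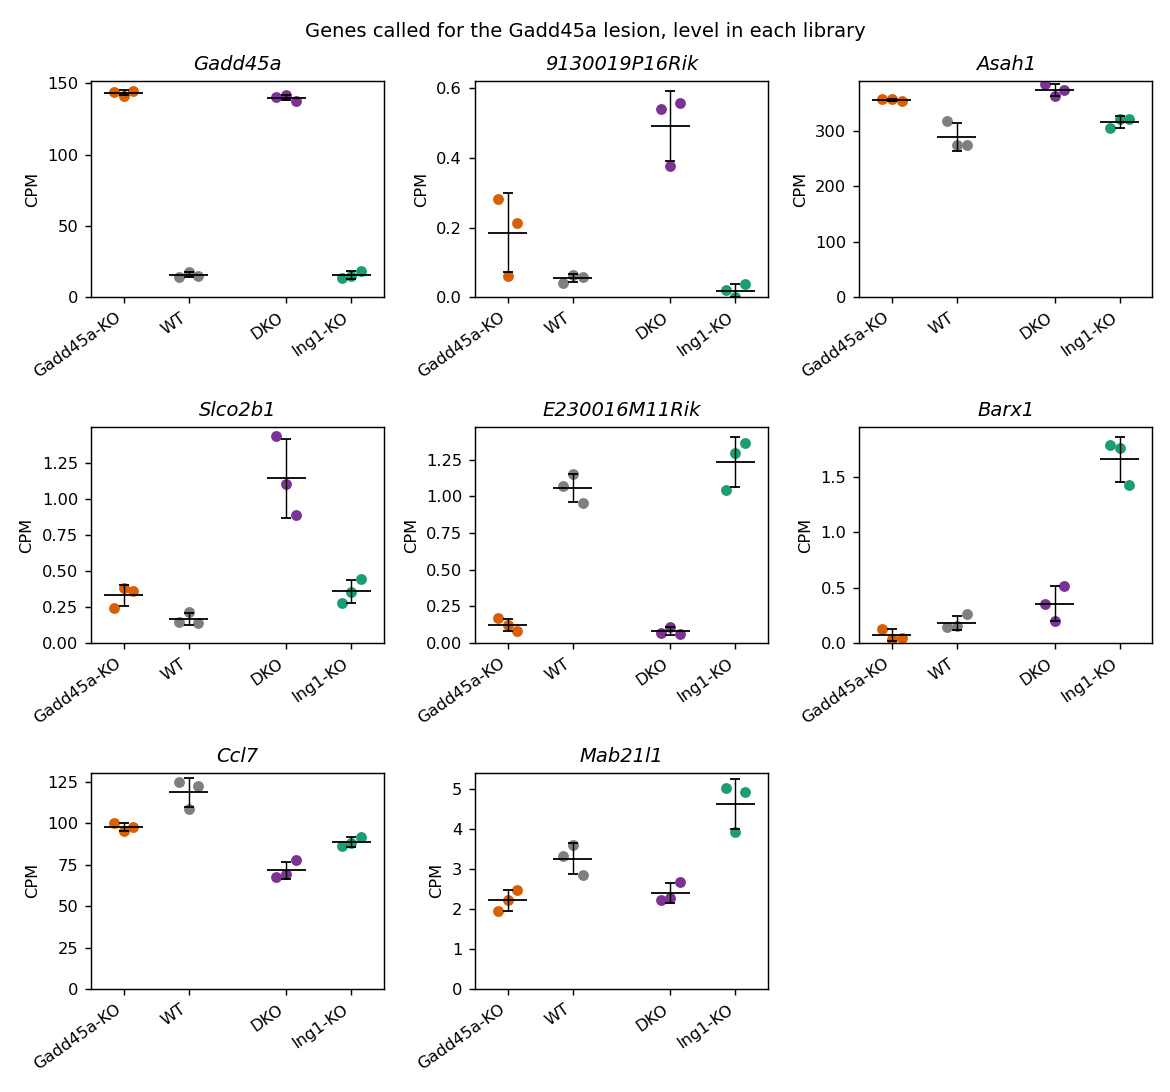
Level in CPM (read counts scaled to library size, linear axes from 0) of 8 of the 9 genes called for the Gadd45a label, 1 panel per gene, with 1 point per library and bars for the mean ± SD of 3 libraries; in each panel Gadd45a-KO stands left of WT and DKO left of Ing1-KO. The libraries labelled Gadd45a-KO and DKO are all above their own controls for Gadd45a, Asah1 and Slco2b1, all below them for E230016M11Rik, Barx1, Ccl7 and Mab21l1, and overlap with WT for 9130019P16Rik.

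A further called gene, 9130019P16Rik, is a non-coding transcript that lies on chromosome 6, 42 tested genes before Gadd45a in the order of the reference annotation. It had 15, 3 and 10 reads in libraries labelled Gadd45a-KO, against 2, 3 and 3 in WT. It had 23, 17 and 27 reads in the libraries labelled DKO, against 1, 0 and 2 in Ing1-KO. The groups overlapped on the Ing1-intact background, where 1 library labelled Gadd45a-KO had 3 reads, and were separate on the Ing1-KO background. This was the 1 called gene that failed the condition of being alike. Its log2 fold change was 3.08 ± 0.48 (adjusted p = 0.0392). From the summed reads the ratio was 3.37 for Gadd45a-KO over WT, with an exact counting interval of 1.497 to 8.56, and 24.5 for DKO over Ing1-KO, with an interval of 8.03 to 121.8. These intervals cover counting error only. The 2 log2 effects, 1.71 and 4.45, differed at an unadjusted p of 0.021 and an adjusted p of 0.30.

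Uncalled genes of the same region are given because of their position and were chosen after their values were seen. Plekha8, which encodes a lipid transfer protein of the Golgi and lies 38 tested genes before Gadd45a, had the lowest adjusted p of all uncalled genes, 0.0696. It stood at 19.7, 19.7 and 21.2 CPM in libraries labelled Gadd45a-KO against 18.1, 17.8 and 17.7 CPM in WT, and at 24.8, 24.3 and 25.0 CPM in the libraries labelled DKO against 18.9, 18.9 and 20.8 CPM in Ing1-KO, with a log2 fold change of 0.26. Adcyap1r1, the receptor of the neuropeptide PACAP, had a log2 fold change of -1.05 with an adjusted p of 0.0950; its libraries were separate on both backgrounds. Its effect was -0.51 in Gadd45a-KO minus WT and -1.77 in DKO minus Ing1-KO, a difference of -1.26 with an interval from -1.83 to -0.70 (adjusted p = 0.157). Within the 81 genes made up of Gadd45a and the 40 tested genes on each side of it, 36 (44.4%) had an unadjusted p under 0.05, against 218 (28.2%) of the 772 tested genes of chromosome 6 and 24.0% of all tested genes. The libraries were separate in the same direction on both backgrounds for 6 of the 81 genes. That compares with 28 (3.63%) of the 772 tested genes of chromosome 6 and 3.16% of all tested genes. Called genes, Gadd45a and E230016M11Rik among them, are part of the 6, and for these the call favours separation. The median absolute log2 fold change was 0.107 in the window and 0.0896 over all tested genes. Whether position on the chromosome has a part in these changes was not tested.

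**Figure D2:**
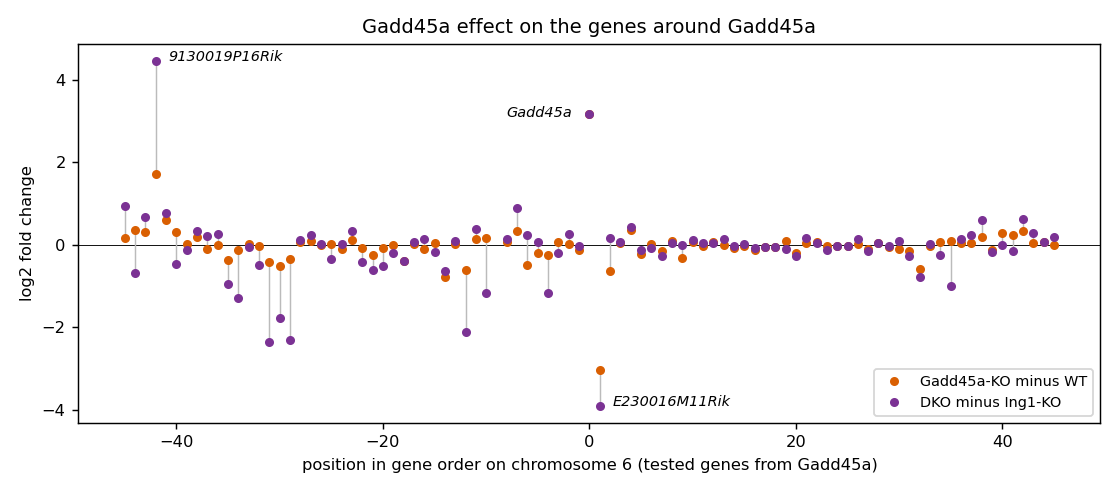
Log2 fold change of tested genes around Gadd45a, drawn in the order of the genes on chromosome 6 with Gadd45a at 0; orange points are Gadd45a-KO minus WT, purple points DKO minus Ing1-KO, and a grey line joins the 2 effects of 1 gene. Gadd45a has nearly equal positive effects on both backgrounds, E230016M11Rik is negative on both, and 9130019P16Rik is higher in DKO minus Ing1-KO.

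Among called genes on other chromosomes, Asah1 and Slco2b1 rose. Asah1, on chromosome 8, encodes acid ceramidase, the lysosomal enzyme that splits ceramide into sphingosine and a fatty acid. It stood at 357, 357 and 355 CPM in libraries labelled Gadd45a-KO, against 319, 274 and 275 CPM in WT. It stood at 384, 362 and 373 CPM in the libraries labelled DKO, against 305, 322 and 323 CPM in Ing1-KO. All 6 libraries labelled as lacking Gadd45a lay above all 6 others. The change was small, with a log2 fold change of 0.27 ± 0.04 at an adjusted p of 0.0394, that is 0.30 and 0.24 on the Ing1-intact and Ing1-KO backgrounds, and an interval of the difference from -0.23 to 0.11.

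Slco2b1 on chromosome 7, a carrier that takes up organic anions including steroid sulphates, was a low gene. It had 13, 19 and 17 reads (0.245, 0.385 and 0.361 CPM) in libraries labelled Gadd45a-KO, against 7, 10 and 7 reads (0.147, 0.217 and 0.139 CPM) in WT. It had 61, 50 and 43 reads (1.43, 1.10 and 0.887 CPM) in the libraries labelled DKO, against 14, 17 and 23 reads (0.281, 0.356 and 0.442 CPM) in Ing1-KO. The libraries were separate on each background, although those labelled Gadd45a-KO overlapped with Ing1-KO. Slco2b1 thus had a log2 fold change of 1.44 ± 0.21 (adjusted p = 0.0394), 0.97 on the Ing1-intact and 1.64 on the Ing1-KO background, with a difference of 0.68 and an interval from -0.36 to 1.72.

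The 3 called genes outside chromosome 6 that fell were Ccl7, Mab21l1 and Barx1. Ccl7 on chromosome 11, a chemokine that attracts monocytes, stood at 100.2, 95.4 and 97.7 CPM in libraries labelled Gadd45a-KO, against 125, 109 and 122 CPM in WT. It stood at 67.8, 69.4 and 77.5 CPM in the libraries labelled DKO, against 86.1, 87.9 and 91.8 CPM in Ing1-KO. On each background the libraries labelled as lacking Gadd45a were the lower ones, and both groups labelled as lacking Ing1 lay below their counterparts with Ing1. For Ccl7 the log2 fold change was -0.29 ± 0.04 with an adjusted p of 0.0394. It was -0.28 and -0.31 on the Ing1-intact and Ing1-KO backgrounds, with a difference of -0.03 and an interval from -0.22 to 0.16. Ccl2, another monocyte chemokine, did not pass the test (log2 fold change -0.26, adjusted p = 0.0950), and its libraries were separate in the same way on both backgrounds. It stood at 106, 98.5 and 99.7 CPM in libraries labelled Gadd45a-KO against 120, 109 and 125 CPM in WT, and at 60.9, 70.9 and 74.4 CPM in the libraries labelled DKO against 86.7, 82.5 and 85.5 CPM in Ing1-KO.

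Mab21l1 on chromosome 3, a gene needed for eye development in the mouse, stood at 1.94, 2.23 and 2.46 CPM in libraries labelled Gadd45a-KO, against 3.33, 3.60 and 2.85 CPM in WT. It stood at 2.23, 2.27 and 2.68 CPM in the libraries labelled DKO, against 5.03, 3.92 and 4.92 CPM in Ing1-KO. All 6 libraries labelled as lacking Gadd45a lay below all 6 others. On the log2 scale the change was -0.76 ± 0.11 (adjusted p = 0.0394), -0.56 and -0.95 on the Ing1-intact and Ing1-KO backgrounds, with an interval of the difference from -0.83 to 0.06.

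Barx1 on chromosome 13, a homeobox transcription factor of stomach mesenchyme and of the developing molars, had 7, 2 and 2 reads in libraries labelled Gadd45a-KO, against 7, 7 and 13 in WT. It had 15, 9 and 25 reads in the libraries labelled DKO, against 89, 84 and 74 in Ing1-KO. In CPM these are 0.132, 0.0406 and 0.0425 in libraries labelled Gadd45a-KO and 0.147, 0.152 and 0.259 in WT, and 0.352, 0.199 and 0.516 in the libraries labelled DKO and 1.78, 1.76 and 1.42 in Ing1-KO. The libraries labelled DKO overlapped with WT, so in CPM the groups were separate within each background and not across them. In reads, Gadd45a-KO replicate 1 had 7, the same as WT replicates 1 and 2. On the Ing1-intact background the separation of Barx1 therefore rests on the scaling to library size. Over both backgrounds its log2 fold change was -2.05 ± 0.25 (adjusted p = 0.00949), -1.32 ± 0.59 on the Ing1-intact background and -2.19 ± 0.27 on the Ing1-KO background, with an interval of the difference from -2.49 to 0.74.

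Of the 9 called genes, 5 rose (0.0309% of tested genes) and 4 fell (0.0247%); of the 8 that were alike, 4 rose and 4 fell. All 9 had the same sign and an unadjusted p under 0.05 on each background. They were called on the same 12 libraries that give these effects. The call itself favours such agreement, which is therefore not a separate test of whether the genes moved alike. The mean level over 12 libraries was at least 5 CPM for Gadd45a, Asah1 and Ccl7, and lower for the other 6. Barx1, Slco2b1, Mab21l1 and 9130019P16Rik lay outside the rule that named the others, and were named after their values were seen because so few genes were called.

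The 9 genes stood on the edge of a much larger group. An unadjusted p under 0.05 was reached by 3887 genes (24.0% of those tested), 1743 higher (10.8%) and 2144 lower (13.3%), where 808 would be given by chance. Between an adjusted p of 0.05 and 0.10 there were 925 genes, so that 934 (5.78%) passed at the looser threshold, 366 higher and 568 lower; that threshold was added after the data had been seen. By the position of the libraries alone, without a test, 510 genes (3.16%) were separate on both backgrounds in the same direction, 174 higher (1.08%) and 336 lower (2.08%), while 107 (0.662%) were separate in opposite directions. Most of the 510 had small changes: their median absolute log2 fold change was 0.19, with 399 under 1.5-fold and 73 at 1 or more on the log2 scale.

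The 2 backgrounds contributed unequally. For Gadd45a-KO minus WT, 2 genes were called (0.0124%), Gadd45a and E230016M11Rik, with 886 (5.48%) at an unadjusted p under 0.05. That count was 33 without Gadd45a-KO replicate 1 and 2 or 3 with any other library left out. For DKO minus Ing1-KO, 1887 were called (11.7%), 956 higher (5.91%) and 931 lower (5.76%), with 5211 (32.2%) at an unadjusted p under 0.05. The count on the Ing1-KO background also depended on single libraries: it was 2 when DKO replicate 1 was left out and 138 when DKO replicate 2 was. Leaving out Ing1-KO replicate 1 gave 298, its replicate 2 gave 16 and its replicate 3 gave 3215. Taking away WT replicate 3 or Gadd45a-KO replicate 3, which enter through the shared estimate of spread, left 1069 and 1200. By edgeR the difference between the 2 effects was called for 0 genes (0.00%), with 2204 (13.6%) at an unadjusted p under 0.05 and a lowest adjusted p of 0.0692; DESeq2 called 173, limma-voom 0. With replicate 3 of a genotype left out, edgeR called 191 for Ing1-KO, 30 for DKO and 1 for WT.

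Since the comparisons on the 2 backgrounds share no library, genes chosen on one can be looked up on the other. Of the 956 genes called higher in DKO minus Ing1-KO, 741 (77.5%) were also positive in Gadd45a-KO minus WT, where their median log2 fold change was 0.05, against 0.31 where they were chosen. Of the 931 called lower, 653 (70.1%) were negative there, with a median of -0.06 against -0.45. In the other direction, of the 599 genes lower at an unadjusted p under 0.05 in Gadd45a-KO minus WT, 488 (81.5%) were negative in DKO minus Ing1-KO, and of the 287 higher ones 182 (63.4%) were positive. Over all tested genes the signs matched for 9973 (61.7%). Across genes, which are not independent of each other, the 2 effects had a Pearson r of 0.431 over 16163 genes and 0.589 over the 10838 with a mean of at least 5 CPM. Values on the background where genes were chosen are raised by that choice.

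**Figure D3:**
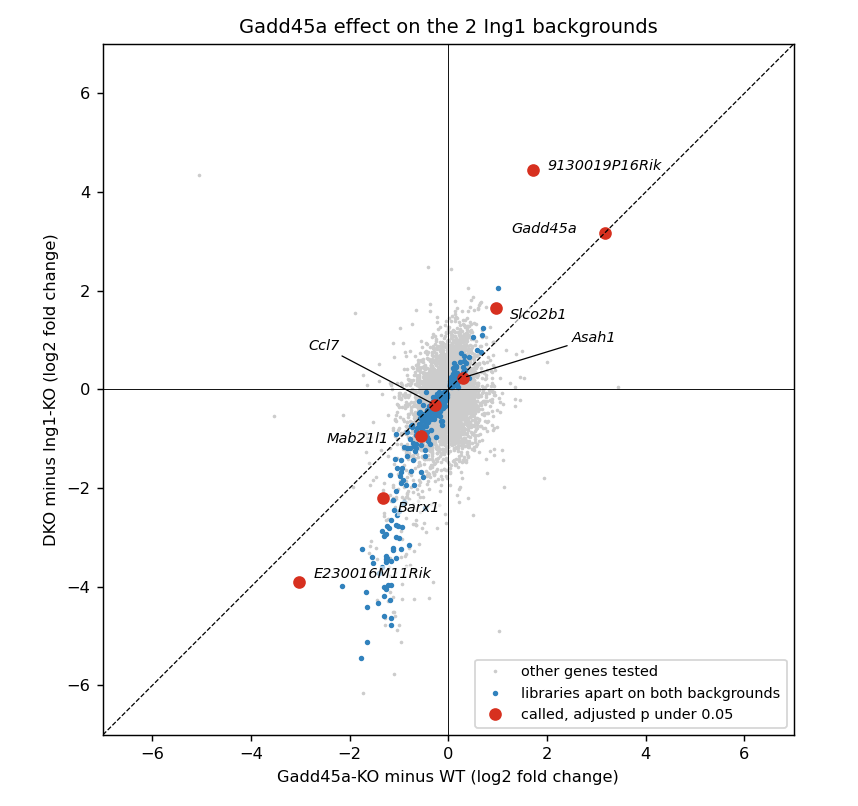
Log2 fold change of each tested gene in Gadd45a-KO minus WT (x axis) and in DKO minus Ing1-KO (y axis); grey points are other tested genes, blue points the genes whose libraries are separate in the same direction on both backgrounds, and red points 8 of the 9 called genes, with a dashed line of equal effects. Gadd45a, Asah1 and Ccl7 lie near the line, and the tail of blue points at the lower left lies below it, with larger negative effects on the Ing1-KO background.

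That tail held fat-cell genes among others. Of the 336 genes separate and lower on both backgrounds, 13 were in the adipocyte identity list. None of the 30 tested members of the adipocyte identity list passed the test, but 29 had a negative log2 fold change, against 53.1% of all tested genes, and 26 were lower at an unadjusted p under 0.05, against 13.3% of all tested genes. Their median log2 fold change was -1.72, against -0.01 over all tested genes, and was -1.02 in Gadd45a-KO minus WT and -2.86 in DKO minus Ing1-KO. The libraries were separate and lower on both backgrounds for 13 members: Plin1, Plin4, Lipe, Pnpla2, Adipoq, Fabp4, Agpat2, Dgat2, Aqp7, Acvr1c, Klf15, Lrg1 and Mrap. Over all tested genes the share was 2.08%. This list, like the others used here, was written with earlier results of these data known. Its members come from the same libraries and are not independent of each other. In bulk RNA, fewer fat cells and less of these transcripts per fat cell cannot be told apart.

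Fabp4, which carries fatty acids inside fat cells, stood at 525, 539 and 394 CPM in libraries labelled Gadd45a-KO, against 1217, 627 and 1181 CPM in WT. It stood at 68.7, 68.6 and 78.9 CPM in the libraries labelled DKO, against 1219, 406 and 98.8 CPM in Ing1-KO. The groups did not overlap on either background, but Ing1-KO spread over more than a 10-fold range and WT replicate 2 lay close to the libraries labelled Gadd45a-KO. The log2 fold change was -2.02 ± 0.56 (adjusted p = 0.0964). Adipoq, which encodes the fat-cell hormone adiponectin, stood at 53.1, 63.2 and 43.0 CPM in libraries labelled Gadd45a-KO against 164, 69.0 and 153 CPM in WT. In the libraries labelled DKO it stood at 3.12, 3.11 and 5.73 CPM, against 146, 44.0 and 9.14 CPM in Ing1-KO, and its log2 fold change was -2.51 ± 0.70 (adjusted p = 0.0964). Plin1, which coats lipid droplets, had a value of -2.34 on that scale with an adjusted p of 0.0964, and Lipe, hormone-sensitive lipase, had -1.72 with an adjusted p of 0.0950. Pparg, the nuclear receptor that drives fat-cell differentiation and the target of rosiglitazone, stood at 8.07 to 10.2 CPM in libraries labelled Gadd45a-KO against 10.97 to 20.6 CPM in WT. In the libraries labelled DKO it stood at 1.74 to 2.48 CPM, against 2.27 to 18.7 CPM in Ing1-KO, where the ranges overlapped (log2 fold change -1.45 ± 0.43, adjusted p = 0.102). Cebpa, its partner transcription factor, had a log2 fold change of -0.59 (adjusted p = 0.145).

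The list as a whole split the libraries in the same way. Its mean level was 4.23, 4.22 and 3.83 log2 CPM in libraries labelled Gadd45a-KO against 5.38, 4.35 and 5.34 in WT, and 1.54, 1.41 and 1.87 in the libraries labelled DKO against 5.29, 3.89 and 2.26 in Ing1-KO. Summed over the members, the level ranged from 2509 to 3044 CPM in libraries labelled Gadd45a-KO against 3349 to 5841 in WT, and from 1296 to 1343 CPM in the libraries labelled DKO against 1334 to 5050 in Ing1-KO, so that the sums overlapped on the Ing1-KO background. Without WT replicate 2 edgeR called 10 of the 30 members lower, against 2.80% of all tested genes, and without Gadd45a-KO replicate 1 it called 1, against 3.07%. DESeq2 on all libraries called 24 lower, against 5.18% of all tested genes.

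In 4 lists of lipid metabolism no member was called. The triglyceride list shares Lipe, Pnpla2, Agpat2 and Dgat2 with the adipocyte list, so it is not separate from it, and all 4 of these genes are among its members counted as separate on both backgrounds. For fatty acid synthesis 17 of 20 tested genes were lower at an unadjusted p under 0.05, with a median log2 fold change of -0.49, -0.46 in Gadd45a-KO minus WT and -0.51 in DKO minus Ing1-KO. Its members separate on both backgrounds were 8, among them Fasn, the fatty acid synthase (-0.52, adjusted p = 0.0950), Acaca, acetyl-CoA carboxylase (-0.56, adjusted p = 0.0950), and Scd1, a desaturase (-1.996, adjusted p = 0.0950). Fasn stood at 340, 369 and 307 CPM in libraries labelled Gadd45a-KO against 547, 382 and 497 CPM in WT, and at 231, 253 and 222 CPM in the libraries labelled DKO against 454, 317 and 258 CPM in Ing1-KO. For triglyceride synthesis and lipolysis 14 of 19 were lower and 1 higher at that threshold (median -0.49, with 9 separate and lower on both backgrounds), and for fatty acid oxidation 21 of 26 were lower (median -0.40, with 4 separate). Cholesterol synthesis had 14 of 24 lower with a median of -0.19, which was -0.19 on each background, and 4 members separate. Of all tested genes, 13.3% were lower and 10.8% higher at an unadjusted p under 0.05. The share separate and lower on both backgrounds was 2.08%. Without WT replicate 2, edgeR called 8 genes lower in fatty acid synthesis, 8 in triglyceride synthesis and lipolysis, 11 in fatty acid oxidation and 9 in cholesterol synthesis, against 2.80% of all tested genes. Without Gadd45a-KO replicate 1 it called 3, 2, 3 and 3 in the same order of lists, against 3.07% of all tested genes.

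Markers of other cell types were examined in the same way. Of 26 macrophage and leukocyte genes, 25 had a positive log2 fold change, against 46.9% of all tested genes, and 16 were higher at an unadjusted p under 0.05, against 10.8% of all tested genes, with a median of 0.48. None was called. Fat-cell values with the level of this list as a covariate are given below. Whether these cells are a cause of the fat-cell values was not tested. The median of the macrophage and leukocyte genes was 0.14 in Gadd45a-KO minus WT and 0.79 in DKO minus Ing1-KO. The summed level ranged from 2501 to 7287 CPM in libraries labelled Gadd45a-KO against 4667 to 5370 in WT, which overlapped, and from 8749 to 9268 CPM in the libraries labelled DKO against 4675 to 5487 in Ing1-KO, which did not. No member was without a read. Adgre1, the F4/80 antigen of macrophages, stood at 153, 401 and 379 CPM in libraries labelled Gadd45a-KO against 239, 279 and 283 CPM in WT, and at 583, 594 and 585 CPM in the libraries labelled DKO against 417, 327 and 334 CPM in Ing1-KO. Gadd45a-KO replicate 1 was the lowest of all 12 libraries and the other 2 of its group were above WT. Without that library edgeR called 23 of the 26 genes higher, and also 14 of 35 proliferation genes and 14 of 26 lysosomal genes, against 6.83% of all tested genes called higher in that fit.

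Of 24 contractile genes, 22 were positive and 5 higher at an unadjusted p under 0.05. Their median was 0.16, with 0.06 in Gadd45a-KO minus WT and 0.28 in DKO minus Ing1-KO. Of 35 proliferation genes 33 were positive and 13 higher (median 0.17, -0.02 in Gadd45a-KO minus WT and 0.34 in DKO minus Ing1-KO). Lysosomal genes, the list of the compartment in which Asah1 acts, had 9 of 26 higher and 2 lower, with a median of 0.10. That median was 0.04 in Gadd45a-KO minus WT and 0.16 in DKO minus Ing1-KO. Fibroblast and preadipocyte genes had 9 of 20 lower, with a median of -0.16, -0.08 in Gadd45a-KO minus WT and -0.25 in DKO minus Ing1-KO. Their member Gata2, named after its values were seen, was lower and separate on both backgrounds (-1.14, adjusted p = 0.0950), as were 2.08% of all tested genes. Cartilage and bone genes had 2 of 22 lower, with a median of -0.10, -0.04 in Gadd45a-KO minus WT and -0.14 in DKO minus Ing1-KO. Endothelial genes had 2 of 9 higher and 2 lower, and a single erythroid gene passed the filter on low counts. Of all tested genes, 46.9% were positive, and 10.8% were higher and 13.3% lower at an unadjusted p under 0.05.

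**Figure D4:**
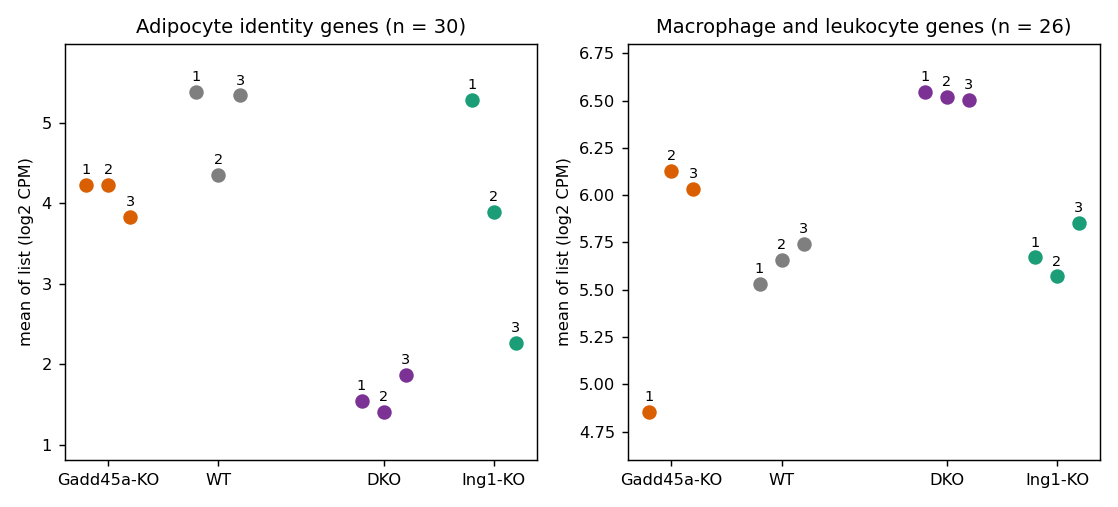
Mean level in log2 CPM of the adipocyte identity list (left, 30 genes) and of the macrophage and leukocyte list (right, 26 genes) in each library; numbers are replicate numbers, and the axes do not start at 0. In the left panel the libraries labelled Gadd45a-KO and DKO lie below their own controls, with WT replicate 2 and Ing1-KO replicate 3 nearest to them, and in the right panel Gadd45a-KO replicate 1, at 4.85, lies below all other libraries.

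The test was repeated with each of these list levels as a covariate. With the adipocyte list level in the model, Gadd45a and E230016M11Rik were called and no others; other estimates were -1.74 for Barx1, 2.27 for 9130019P16Rik, -0.28 for Ccl7, 0.28 for Asah1, -0.72 for Mab21l1 and 0.90 for Slco2b1. With the leukocyte list level Gadd45a and E230016M11Rik were called again, and other estimates were -1.37 for Barx1, 3.21 for 9130019P16Rik, -0.28 for Ccl7, 0.29 for Asah1, -0.76 for Mab21l1 and 1.04 for Slco2b1. These genes kept their sign under both covariates. Fabp4 went to 0.09 and Pparg to 0.08 with the adipocyte covariate, a list that contains both. With the leukocyte covariate Fabp4 was at -1.55, Adipoq at -1.97, Pparg at -1.17 and Cebpa at -0.61, and none of them was called.

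In the lists of the Gadd45 family and of the pathways it is known for, Gadd45a was the single gene called. Gadd45b stood at 29.8 to 33.8 CPM in libraries labelled Gadd45a-KO against 29.6 to 32.7 CPM in WT, and at 28.1 to 35.05 CPM in the libraries labelled DKO against 29.6 to 33.4 CPM in Ing1-KO (log2 fold change 0.03, adjusted p = 0.804). Gadd45g had a log2 fold change of -0.04 (adjusted p = 0.772). Of the 13 tested genes of the family and its partners, 3 were higher and 1 lower at an unadjusted p under 0.05, Gadd45a included, and Map3k4, the kinase that Gadd45 proteins bind, had a log2 fold change of -0.02. Of 31 p53 targets 3 were higher and 1 lower, with a median of -0.01; Cdkn1a, the cell cycle inhibitor p21, had -0.07 (adjusted p = 0.43) and Mdm2, which marks p53 for degradation, -0.00. Of 29 genes of stress kinase signalling and AP-1, 4 were higher and 2 lower (median 0.07), and of 22 genes of the integrated stress and unfolded protein responses 3 were higher and 1 lower (median 0.05). At the same threshold 10.8% of all tested genes were higher and 13.3% lower. Mapk13 of the stress kinase list was lower and separate on both backgrounds (-0.26, adjusted p = 0.107). Its effect was -0.45 in Gadd45a-KO minus WT and -0.06 in DKO minus Ing1-KO. Hsp90b1 of the unfolded protein response list was higher and separate on both (0.08, adjusted p = 0.126). Both were named after their values were seen. Of all tested genes, 2.08% were separate and lower, and 1.08% separate and higher.

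Of 30 genes of DNA demethylation and base excision repair, 2 were higher and 1 lower at an unadjusted p under 0.05, with a median of 0.06. Among all tested genes 10.8% were higher and 13.3% lower at that threshold. Tdg, the glycosylase that removes oxidised methylcytosine, had a log2 fold change of 0.00, and Tet1, which oxidises it, one of -0.06. The lower gene was Apex1, the endonuclease that cuts the DNA backbone at abasic sites (-0.18, adjusted p = 0.0950). It stood at 11.8, 12.0 and 12.3 CPM in libraries labelled Gadd45a-KO against 13.2, 14.96 and 13.3 CPM in WT, and at 11.1, 12.1 and 12.1 CPM in the libraries labelled DKO against 13.1, 13.9 and 12.8 CPM in Ing1-KO. Its libraries were thus separate on both backgrounds, and it did not pass the test.

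The remaining lists were mixed. Chemokines and cytokines had 1 of 22 called, Ccl7, with 2 higher and 8 lower at an unadjusted p under 0.05 (median -0.18). Interferon-response genes had 0 higher and 2 of 24 lower (median -0.07), collagens and matrix genes 2 higher and 7 of 32 lower (median -0.01), and Hox genes 3 higher and 4 of 30 lower (median -0.02). Over all tested genes 0.0557% were called, and 10.8% were higher and 13.3% lower at that unadjusted threshold. Hoxa11 was the Hox gene that was lower and separate on both backgrounds (-0.60, adjusted p = 0.112). Cdkn2a, the locus of the cell cycle inhibitor p16 and of Arf, differed between backgrounds in value: -0.02 in Gadd45a-KO minus WT and -0.64 in DKO minus Ing1-KO, a difference of -0.62 with an interval from -0.84 to -0.39 that did not pass the adjusted test (adjusted p = 0.14).

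The number of calls depended on single libraries and on the tool, while the calls of Gadd45a and E230016M11Rik held with any library left out. Without Gadd45a-KO replicate 1 edgeR called 1119 genes higher (6.83%) and 502 lower (3.07%), of which 923 and 322 were alike on both backgrounds, and without WT replicate 2 it called 258 higher (1.57%) and 460 lower (2.80%), of which 208 and 393 were alike. With 2 libraries left in a group, separation from the controls is easier to reach. With all 12 libraries DESeq2 called 544 higher (3.37%) and 838 lower (5.18%), 8 of the 9 genes among them. For the remaining gene, 9130019P16Rik, DESeq2 gave no adjusted p. With any 1 of the other 10 libraries left out, edgeR called 2 or 3 genes higher and 1 to 7 lower. Gadd45a and E230016M11Rik were called in all 12 of these fits and Barx1 in 11, the exception being the fit without DKO replicate 1 (adjusted p = 0.0942). Asah1, Ccl7, Mab21l1 and 9130019P16Rik each lost the call in 9 of the 12 fits and Slco2b1 in 10, while their log2 fold changes kept their sign and stayed between 0.25 and 0.30 for Asah1, -0.32 and -0.28 for Ccl7, -0.82 and -0.71 for Mab21l1, 2.74 and 3.39 for 9130019P16Rik, and 1.29 and 1.54 for Slco2b1.

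**Figure D5:**
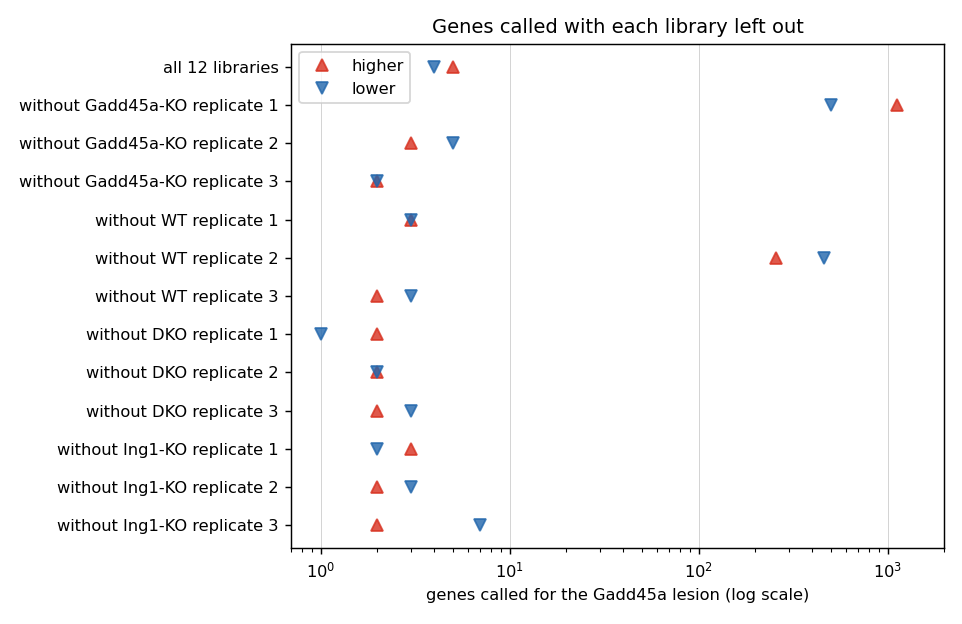
Number of genes called for the Gadd45a label (log axis), higher as red triangles and lower as blue inverted triangles, with all 12 libraries and with each library left out in turn. With all libraries 5 are higher and 4 lower; the counts reach 1119 and 502 without Gadd45a-KO replicate 1 and 258 and 460 without WT replicate 2, and stay at 7 or fewer in the other 10 fits.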

How the data were processed

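Per the labels' protocols, libraries were made with a TruSeq kit that does not mark strand, from poly(A) RNA, and pooled for single-end sequencing. The authors deposited unnormalised read counts for each Ensembl gene. The submitters' processing notes list HTSeq 0.5.4 and DESeq, TopHat2 2.0.9 with Bowtie2 2.1.0, FastQC, and the builds NCBIM37 and mm9. How HTSeq treated strand and multiple overlaps is not given in the sources used here. Every file lists 37991 identifiers. A further 5 lines that name no gene held 24.2% to 24.8% of the reads and were left out. Gene reads per library ranged from 42891627 to 52860419. Symbols and gene order came from a later GENCODE mouse annotation (32919 identifiers matched); promoter coordinates are RefSeq's, on GRCm38.p6.

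Computed here were CPM, log2 CPM (prior count 0.5) and tests with edgeR 4.0.16 in R 4.3.3: TMM factors (0.986 to 1.01), filterByExpr by genotype, robust dispersions, and quasi-likelihood F-tests in an additive model of the Ing1 and Gadd45a labels over all 12 libraries. The common biological coefficient of variation was 0.114. A second fit of genotype means gave the effect on each background and their difference. The genes called had a Benjamini-Hochberg adjusted p under 0.05 over all tested genes, with no fold minimum. An SE was taken as the size of the log2 fold change over the root of its F statistic. The steps were tested on simulated counts that held additive changes for the Gadd45a label only. Those counts had no Ing1 effect, no difference between backgrounds and no spread shared by the genes of a library. They therefore do not show how the calls depend on single libraries. Replicates of each genotype differed by more than sampling noise.

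Named genes are a panel of 19; called genes alike on both backgrounds with a mean of at least 5 CPM, up to 14 each way; up to 4 called per list; called genes within 40 tested genes of Gadd45a; and others stated to be chosen after their values were seen. Of the genes called, 1 is not reported here. Members, panel and the 22 gene lists were chosen with earlier results of these data known. Alternatives were DESeq2 1.42.0, limma-voom 3.58.1, upper-quartile and RLE factors, a mean of at least 5 CPM, no filter, the legacy fit, no Ing1 covariate, the replicate number as a block, list levels as covariates, a fold of at least 1.5, other thresholds, the average of the background effects and leaving out each library.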

Additional observations from a re-analysis of the deposited data

How the results depend on the processing

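The main counts were 5 genes higher and 4 lower, with 4 and 4 alike on both backgrounds. Values that moved are given as higher and lower, then alike higher and lower. DESeq2 gave 544 and 838, alike 134 and 267, with 7 genes for Gadd45a-KO minus WT, 2924 for DKO minus Ing1-KO and 173 for their difference. The average of the 2 background effects gave 185 and 209, alike 57 and 107. An adjusted p under 0.10, an alternative chosen after seeing the data, gave 366 and 568, alike 120 and 250. An adjusted p under 0.01 gave 2 and 2, alike 2 and 2, and 18 for DKO minus Ing1-KO. A fold of at least 1.5, the legacy fit and the leukocyte covariate each gave 2 and 1, alike 2 and 1, with 7 for DKO minus Ing1-KO under the fold minimum and 3 under that covariate. The adipocyte covariate and the fit without the Ing1 covariate each gave 1 and 1, alike 1 and 1; under the adipocyte covariate 4 genes were called for Gadd45a-KO minus WT, 3 for DKO minus Ing1-KO and 2 for the difference. A mean of at least 5 CPM gave 1 and 0, alike 1 and 0, and 1 for Gadd45a-KO minus WT. Limma-voom gave 3 higher. Without a filter 1081 were called for DKO minus Ing1-KO and 1 for the difference, and with only the 6 libraries compared 1227 were called for DKO minus Ing1-KO. The cause of these shifts was not tested.

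Leaving out 1 library gave 2 to 1119 higher, 1 to 502 lower, 2 to 923 alike higher, 1 to 393 alike lower, 2 to 33 for Gadd45a-KO minus WT, 2 to 3215 for DKO minus Ing1-KO and 0 to 191 for the difference. The replicate block gave 2 higher, 3 lower and 2 alike higher, with 1387 for DKO minus Ing1-KO. Over 18 same-numbered pairs the correlation of deviations ran from -0.44 to 0.46 and exceeded 0.1 in 5. The labels do not say whether same-numbered libraries share a batch or culture. With 3 libraries per genotype these correlations cannot decide it.

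Gadd45a kept its call in 26 of 26 settings, E230016M11Rik in 25 of 25, Barx1 in 19 of 25, Ccl7 in 10 of 26, Asah1 in 8 of 26, Mab21l1 in 8 of 25, Slco2b1 in 7 of 25 and 9130019P16Rik in 7 of 24; none of these 8 changed sign. A setting that gave no adjusted p for a gene, as the 5 CPM minimum did for low genes, was not counted for it. Uncalled genes that changed sign were, under the adipocyte covariate, Pparg (0.0807), Cebpa (0.0543), Fabp4 (0.0897), Dlk1 (0.365), Tet1 (0.0293), Mdm2 (0.0185), Gadd45b (-0.0257), Tdg (-0.0218) and Acta2 (-0.0712), and under the leukocyte covariate Dlk1 (0.0506), Mdm2 (0.0144), Tdg (-0.0104) and Adgre1 (-0.00785). Tdg was -0.00720 at a mean of at least 5 CPM and -0.00461 with upper-quartile factors, and Ing1 was 0.0165 without its covariate. With 1 library left out, Gadd45b ran from -0.00583 to 0.0642, Tdg ran from -0.0184 to 0.0205, Mdm2 ran from -0.0197 to 0.0115, Gadd45g ran from -0.0905 to 0.00383 and Dlk1 from -0.242 to 0.0411. RLE and upper-quartile factors shifted the median of all genes by 0.002 and -0.005. At the depth of these libraries 9130019P16Rik, Barx1 and Slco2b1 rest on few reads each.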
